A study of Mus musculus with 6 samples.

Results

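The genes described here are the replication-dependent histone genes of the mouse, chosen as every gene whose symbol in the count files starts with Hist1h, Hist2h, Hist3h or Hist4h. There were 68 such genes among the 24062 genes counted. A summed count of 60 or more over the 6 libraries was required for analysis, and 54 of the 68 met it: 5 of 6 H1 genes, 13 of 18 H2a genes, 14 of 19 H2b genes, 10 of 12 H3 genes and 12 of 13 H4 genes. All 54 also passed the filter on low counts of the test. The count limit used levels only, not differences between groups, but the histone genes were chosen with earlier results of these data known. The gap at the limit was wide. Hist1h2an, with 502 counts in all, was the analysed gene with the fewest, and Hist1h2ba, with 24, was the gene with the most among those left out. A further 7 genes had 0 counts in every library: Hist1h2ao, Hist1h2ap, Hist1h2bq, Hist1h2br, Hist2h2aa1, Hist2h3c1 and Hist2h3c2. From 2.68% (Hist1h2bq) to 65.3% (Hist2h3c1) of their 50-base stretches are unique among the annotated transcripts. Reads placed at more than 1 site were set aside in counting, so 0 counts need not mean a silent gene.

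RNA-seq was made from NIH3T3 cells, an established mouse fibroblast line. All cells carried an siRNA for 48 h, either a negative control siRNA or 1 siRNA against SPT6 (gene symbol Supt6), a histone chaperone that travels with elongating RNA polymerase II. There was 1 library of untreated cells with the control siRNA and 1 with the SPT6 siRNA. Cells given interferon beta (IFN-beta) at 100 units per ml for 4 h gave 2 libraries with the control siRNA and 2 with the SPT6 siRNA. With a single siRNA sequence, effects of SPT6 loss and of that sequence cannot be told apart. Nothing in the labels ties the libraries of a group to different cultures. The p-values therefore reflect how far these libraries differ, a spread that may be technical.

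Each S phase, a cell must make enough histone protein to wrap the newly copied DNA, and these clustered, mostly intronless genes supply it. The core histones H2A, H2B, H3 and H4 form the nucleosome, and linker histone H1 binds where DNA enters and leaves it. Their mRNAs are the known case of metazoan mRNAs that usually end without a poly(A) tail. The 3′ end is made by a cut just after a short stem-loop, which is bound by the stem-loop binding protein SLBP, and the U7 small nuclear ribonucleoprotein directs the cut. Some histone genes also carry a downstream poly(A) signal and give polyadenylated mRNA, mainly outside S phase.

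The stem-loop is shown first because it sets these mRNAs apart. Of 19 analysed genes with no stem-loop in the annotated transcript, 18 were lower with SPT6 siRNA in IFN-beta and 1, Hist2h2be, was higher. A stem of 6 base pairs (G-T pairs allowed) with a loop of 4 bases was searched for in GENCODE M21 transcripts (GRCm38). The search covered the 100 bases after the stop codon. The stem had to open with GG and close with CC, and the loop to open with TT, so other stem-loops were not counted. A match was found in 35 of the 39 analysed genes whose annotation runs 50 or more bases past the stop codon (89.7%). Among other protein-coding genes annotated that far, 13 of 20609 held a match (0.0631%). Of the other 15 analysed genes, 13 are annotated for 2 bases or fewer past the stop codon, and Hist2h3b (37 bases) and Hist1h1a (48 bases) held no match in that stretch. The 4 of the 39 without a match were Hist1h2bc, Hist1h3g, Hist1h4a and Hist2h2be. The poly(A) signal AATAAA or its variant ATTAAA stood within the last 50 bases of the transcript in 12 of the 39 (30.8%), against 81% of the other genes. The lines below show 5 forms of the stem-loop with 5 bases on each side, and then the poly(A) signal of Hist2h2be. Capitals mark the stem-loop or the signal, and sequences are written 5′ to 3′ on the strand of the gene.

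Hist1h1e (H1): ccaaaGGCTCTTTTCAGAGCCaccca
Hist1h2bb (H2b): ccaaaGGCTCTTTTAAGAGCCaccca
Hist2h2ac (H2a): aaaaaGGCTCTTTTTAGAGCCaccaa
Hist1h4d (H4): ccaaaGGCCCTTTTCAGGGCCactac
Hist1h4i (H4): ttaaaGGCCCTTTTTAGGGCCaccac
Hist2h2be (H2b, poly(A) signal): tattattattAATAAAgttaccgatt

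The Hist1h1e stem-loop lies at chr13:23621782-23621797 on the minus strand, that of Hist1h2bb at chr13:23747203-23747218 on the plus strand, and that of Hist2h2ac at chr3:96220418-96220433 on the minus strand. Those of Hist1h4d and Hist1h4i lie at chr13:23581950-23581965 (plus) and chr13:22040966-22040981 (minus). The form in Hist1h1e was the most frequent, held by 19 analysed genes of the H1, H2a, H2b and H3 families. The form in Hist1h4d was held by 6 genes, all of them H4. The Hist2h2be stretch lies at chr3:96223707-96223732 (plus), and 16 bases separate its signal from the annotated end of the transcript.

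Hist2h2be, an H2B gene, ran against the rest of the group. In untreated cells it had 59 counts (4.85 CPM, that is, counts relative to library size with TMM scaling) with control siRNA and 122 counts (14.6 CPM) after SPT6 knockdown. With IFN-beta, the control libraries had 37 and 50 counts (2.79 and 2.97 CPM) and the SPT6 siRNA libraries 110 and 132 counts (11.2 and 11.5 CPM). Every SPT6 siRNA library therefore lay above every control library. With IFN-beta, both SPT6 siRNA libraries lay above both control libraries, as they did in 22.7% of all genes tested. Untreated cells had no replicate libraries, so overlap could not occur there. In IFN-beta the control mean was 2.88 ± 0.13 CPM (SD, n = 2), and the knockdown mean was 11.4 ± 0.19 CPM (SD, n = 2). The fitted log2 difference was 1.98 ± 0.26 (SE), a 3.93-fold difference.

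That difference did not pass edgeR's quasi-likelihood test (adjusted p = 0.238), in which no gene of the genome did at a threshold of 0.05 (0 of 13185, 0%). By unadjusted p, Hist2h2be ranked 8 of 13185 genes. DESeq2 called it (adjusted p = 0.00978), where 58 of 13185 genes were called higher (0.44%). Over the 14 alternative settings its log2 difference lay between 1.84 and 2.06. The lowest adjusted p, 2.45e-13, came from edgeR with a term for the replicate number of the library. That fit has fewer residual degrees of freedom than the main one. With limma-voom the adjusted p was 0.33. In untreated cells, with 1 library a side, the ratio was 3.02 (95% exact conditional binomial interval 2.19 to 4.19, counting error only). Hist2h2be supplied 0.225% to 0.382% of H2b counts in the control libraries and 1.42% to 1.52% in the SPT6 siRNA libraries, so it remained a small part of the family.

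The annotated Hist2h2be transcript (chr3:96221119-96223738, plus strand, 1 exon, 2620 bases) has 2192 bases after its stop codon. Every stretch of 50 bases in it is unique among the annotated transcripts, and no other gene overlaps it. Its nearest neighbour on one side is Hist2h2ac, an H2A gene on the opposite strand (chr3:96220361-96220880). The annotated starts of the pair face away from each other with 238 bases between them. Hist2h2ac went the other way: in IFN-beta its control libraries had 34.6 and 54.1 CPM and its knockdown libraries 26.1 and 22.6 CPM. The untreated values were 45.4 CPM for the control and 42.2 CPM for the knockdown. Its fitted log2 difference with IFN-beta was -0.87 ± 0.25 (SE, edgeR adjusted p = 0.350).

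**Figure D1:**
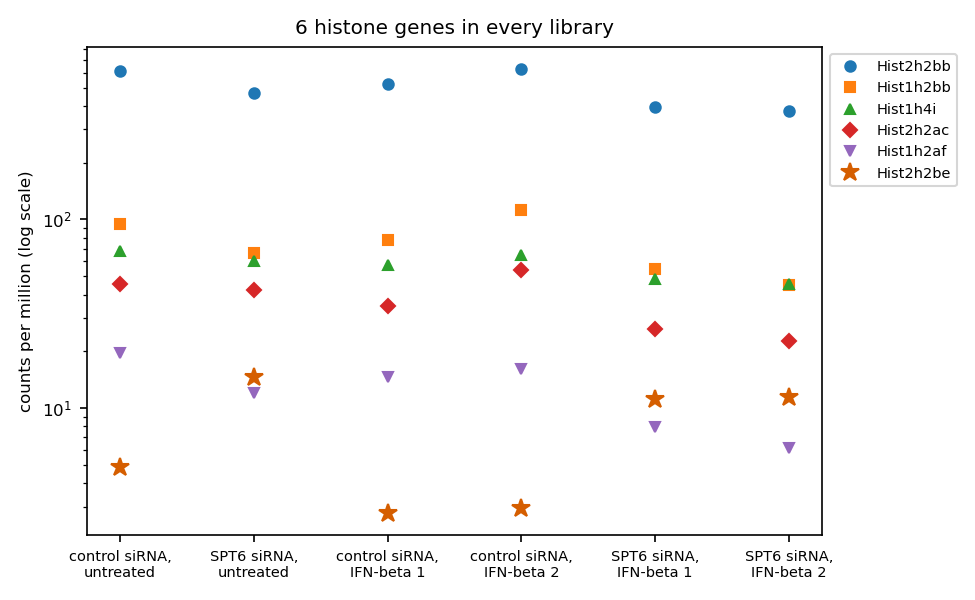
CPM (log scale, TMM scaled) of 6 histone genes in each of the 6 libraries, one point per library. Hist2h2be (stars) lies between 2.79 and 4.85 with control siRNA and between 11.2 and 14.6 with SPT6 siRNA, while Hist2h2ac, on the opposite strand beside it, lies lower with SPT6 siRNA in each treatment.

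The other 53 analysed histone genes had lower fitted levels with SPT6 siRNA than with control siRNA in IFN-beta. The median log2 difference over all 54 was -0.65, against -0.02 over the 13185 genes tested, of which 6858 (52.0%) lay below 0. In 52 of the 54, the knockdown libraries given IFN-beta were both lower than either control library, where 21.3% of all genes tested did so, and in 1, Hist2h2be, both lay above, where 22.7% did. Hist4h4 was the 1 gene whose libraries overlapped, with 146 and 225 CPM in the control libraries and 127 and 150 CPM in the SPT6 siRNA libraries. No gene passed edgeR's quasi-likelihood test, 40 of the 54 had an unadjusted p under 0.05 (1538 of 13185 genes in all), and adjusted p lay between 0.238 and 0.611. Limma-voom called 0 of the 54 and DESeq2 called only Hist2h2be. The calls depended on the design. EdgeR fits with a block for the replicate number called more of the 54, and more of all genes. They are given with the other settings at the end, since the labels do not say what a number stands for.

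Each treatment and replicate number gave a pair of libraries, 3 pairs in all. In 52 of 54 genes the SPT6 siRNA library was the lower in each of the 3 pairs, where 28.3% of all genes tested were, and in Hist2h2be it was the higher in each, where 25.8% were. The median log2 ratio was -0.38 in the untreated pair, -0.40 in the first IFN-beta pair and -0.83 in the second. In the untreated pair 52 of the 54 genes lay lower with SPT6 siRNA, where 52.2% of all genes did. The exceptions were Hist2h2be and Hist1h4h, an H4 gene with 135 and 137 CPM. The second IFN-beta pair thus had the most negative median. Without its control library the fitted median was -0.43, and 53 of the 54 genes were below 0.

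**Figure D2:**
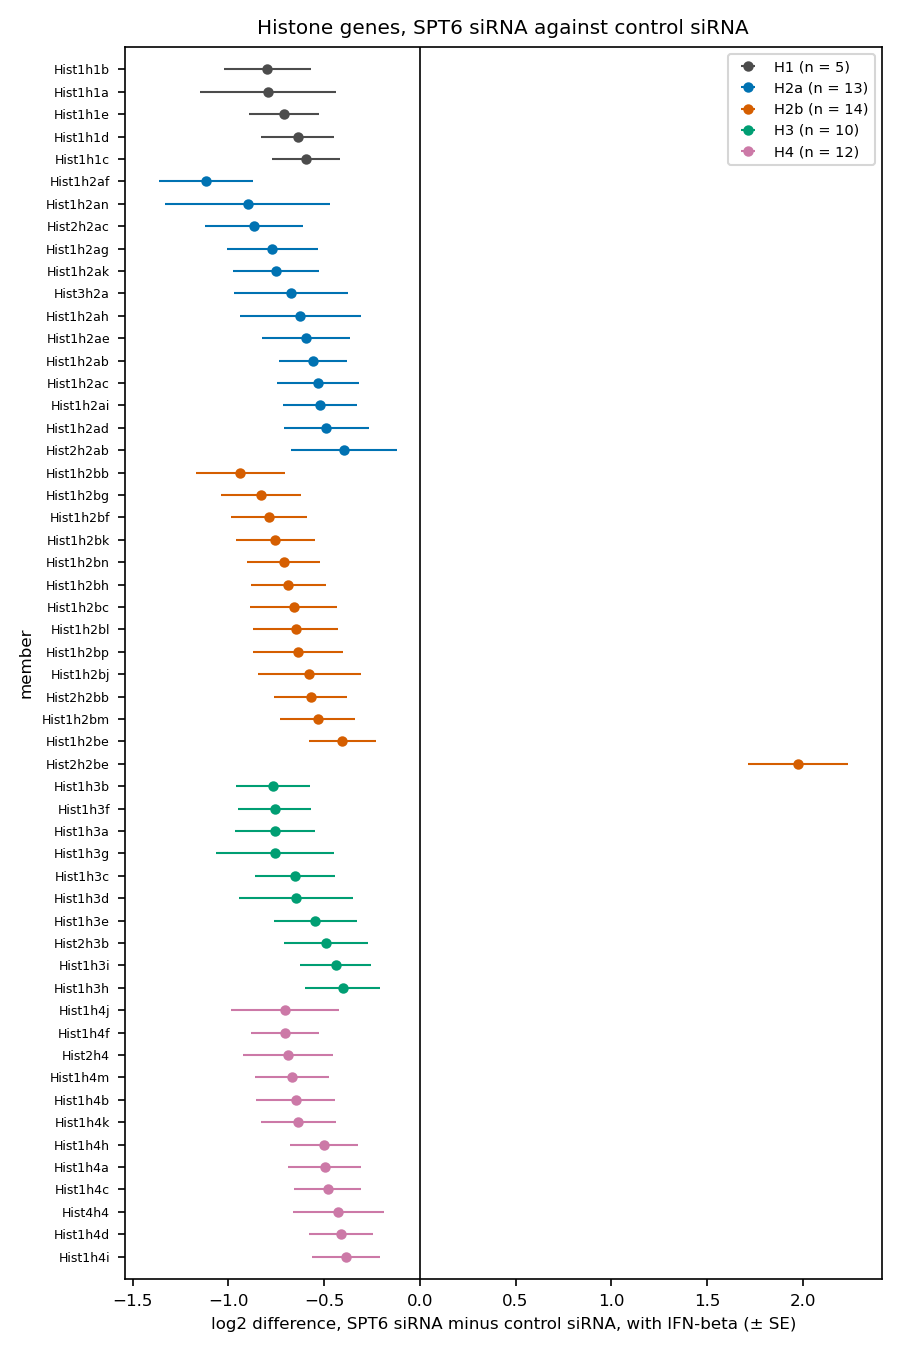
Fitted log2 difference (SPT6 siRNA minus control siRNA, with IFN-beta; points, bars ± SE) of the 54 analysed histone genes, grouped by family. All points lie between -1.12 and -0.38 except Hist2h2be at 1.98.

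Summed over all genes of a family, counts were lower with SPT6 siRNA in each of the 5 families and each of the 3 pairs. Over all 68 genes the sum in untreated cells was 4313 CPM for the control and 3348 CPM for the knockdown. In IFN-beta the control libraries held 3402 and 4305 CPM, and the knockdown libraries 2588 and 2466 CPM. The groups did not overlap. The means with IFN-beta were 3854 ± 639 CPM (SD, n = 2) and 2527 ± 86.8 CPM (SD, n = 2), a ratio of 0.656, so the control libraries differed more from each other than the SPT6 siRNA libraries did. With 2 libraries against 2, an exact permutation test of this single value cannot give a two-sided p below 0.333, and none was made. In bulk RNA, fewer cells making a transcript and less of it per cell cannot be told apart.

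**Figure D3:**
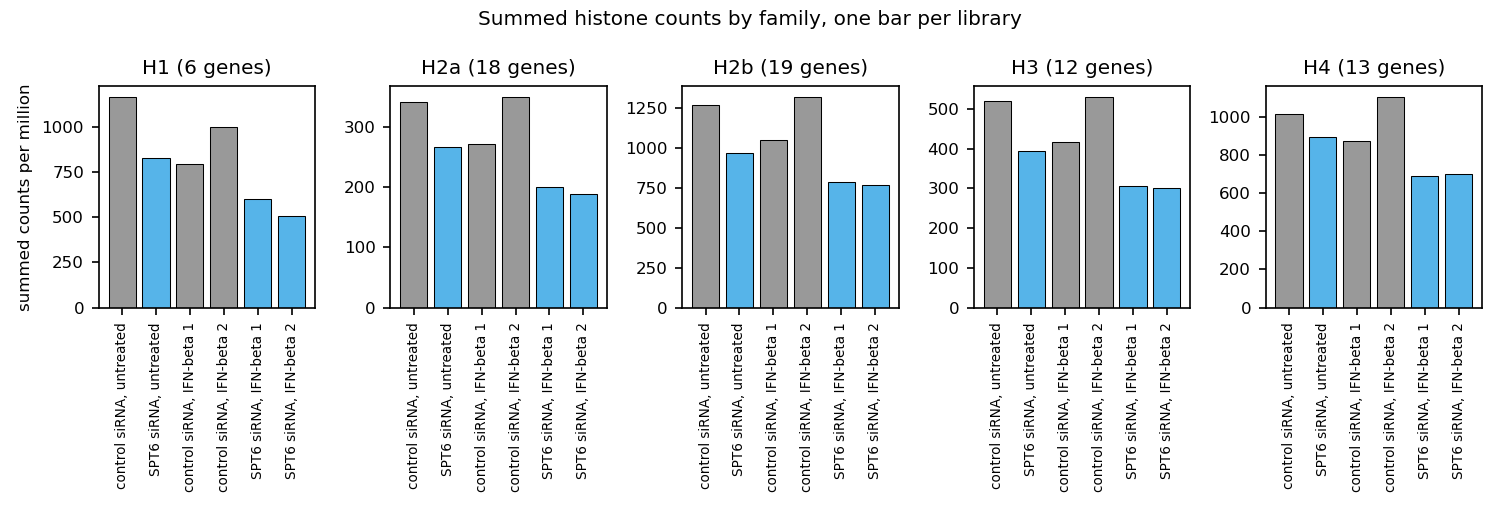
Summed CPM of all genes of each histone family, one bar per library (grey, control siRNA; blue, SPT6 siRNA); each axis starts at 0. In every family the bar with SPT6 siRNA is below the control bar of the same treatment and number.

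Linker histone genes were 23.9% of all histone counts. Their sum with IFN-beta was 0.621 times the control mean, with a log2 ratio of -0.40 in the first pair and -0.97 in the second. Hist1h1e was the most abundant H1 gene, with 248 and 291 CPM in the control libraries and 177 and 153 CPM in the SPT6 siRNA libraries given IFN-beta (log2 difference -0.71 ± 0.18 SE). In untreated cells it had 381 and 240 CPM, so the order was the same. Hist1h1b had the lowest fitted difference in the family (-0.80 ± 0.23 SE) and Hist1h1c the highest (-0.59 ± 0.18 SE). All 5 analysed H1 genes were lower in each of the 3 pairs (28.3% of all genes tested), and Hist1h1d (-0.64 ± 0.19 SE) lay between.

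Among H2A genes, all 13 analysed were lower in each of the 3 pairs (28.3% of all genes tested), with a median of -0.62. Hist1h2af had the lowest difference of any histone gene. In IFN-beta its control libraries had 14.5 and 16.1 CPM and its knockdown libraries 7.95 and 6.18 CPM, with no overlap. In untreated cells it had 238 counts in the control and 100 in the knockdown. Its log2 difference was -1.12 ± 0.24 (SE; edgeR adjusted p = 0.293). Its counts are an uncertain guide to the level of that one gene. Of its 50-base stretches 20.3% are unique and 79.7% occur in Hist1h2ad as well, and reads placed at more than 1 site were set aside in counting. Hist1h2ak was the most abundant H2A gene (-0.75 ± 0.22 SE), Hist1h2ab had -0.56 ± 0.18 and Hist3h2a -0.67 ± 0.30. Hist2h2ab had the smallest difference (-0.40 ± 0.28 SE).

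H2B genes held 30.3% of the histone counts, and Hist2h2bb alone 37042 of their 76229. Per length it was the highest of the analysed genes that could be scaled, at 1239 CPM per kilobase of its RefSeq transcript in untreated control cells, against 488 for Hist1h4d and 487 for Hist1h1e. In GENCODE it overlaps Gm20628 and Gm42743. Hist1h1e and Hist1h2be overlap each other on the same strand, and each analysed H2a gene, Hist2h3b and Hist1h4b also overlap another gene. How the counting treated strand is not given in the sources used here, and the part of such overlaps in the levels was not tested. In IFN-beta Hist2h2bb had 523 and 626 CPM in the controls against 397 and 377 CPM in the knockdown libraries, which did not overlap (log2 difference -0.57 ± 0.19 SE). Hist1h2bb had the lowest difference among the H2B genes, with 77.7 and 113 CPM against 54.4 and 45.1 CPM (-0.94 ± 0.23 SE, edgeR adjusted p = 0.309). Hist1h2bh (-0.69 ± 0.20 SE) and Hist1h2be (-0.41 ± 0.17 SE) were among the most abundant. Without Hist2h2be, the 13 remaining H2B genes had a median of -0.66 and were all lower in each of the 3 pairs (28.3% of all genes tested).

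Of the H3 genes, all 10 analysed were lower in each of the 3 pairs (28.3% of all genes tested), with a median of -0.65. Hist1h3f, the most abundant, had 84.0 and 110 CPM in the IFN-beta controls against 57.7 and 56.8 CPM in the knockdown libraries (log2 difference -0.76 ± 0.19 SE). Hist1h3b had the lowest difference (-0.77 ± 0.19 SE) and Hist1h3h the highest (-0.40 ± 0.20 SE). The libraries given SPT6 siRNA and IFN-beta were not equally low in each gene: Hist1h3d had 371 counts in the first and 251 in the second, and Hist1h3c 255 and 408. Hist1h3e had -0.55 ± 0.22 (SE).

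H4 genes had the smallest differences of the 5 families, with a median of -0.57 and a family sum 0.705 times that of the controls in IFN-beta. The family medians, from -0.71 to -0.57, lay closer together than the medians of the 2 IFN-beta pairs did, so no order of families is drawn. In untreated cells the H4 sum was 1016 CPM for the control and 893 CPM for the knockdown, a ratio of 0.879, where the other families had ratios from 0.711 to 0.781 in that pair. Hist1h4d, the most abundant H4 gene, had 168 and 200 CPM against 139 and 138 CPM in IFN-beta (-0.41 ± 0.17 SE). Hist1h4i had the smallest difference of any gene below 0 (-0.38 ± 0.18 SE) and Hist1h4j the largest of the family (-0.70 ± 0.28 SE). Hist1h4h (-0.50 ± 0.18 SE) and Hist1h4c (-0.48 ± 0.18 SE) lay between.

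The genes lie in 4 clusters. The 46 analysed genes of the Hist1 cluster on chromosome 13 had a median log2 difference of -0.65, all of them below 0. The 6 of the Hist2 cluster on chromosome 3 had a median of -0.53, and -0.57 without Hist2h2be. Hist3h2a on chromosome 11 (-0.67) and Hist4h4 on chromosome 6 (-0.43 ± 0.24 SE), each the 1 analysed gene of its cluster, were also below 0, so a lower level was not limited to 1 cluster in these libraries.

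The annotated 3′ end sorted the genes into 3 classes with similar medians. Genes whose transcript ends within 100 bases of the stem-loop (17 genes) had a median of -0.67, those annotated over 100 bases past it (18 genes) had -0.62, and those with no stem-loop in the annotated transcript (19 genes, Hist2h2be among them) had -0.64. Most genes of that last class are annotated for few or no bases past the stop codon, so their 3′ ends could not be searched. Genes with a poly(A) signal in the last 50 bases (12 genes) had a median of -0.55 and the other 42 had -0.655. Hist1h4a, the other gene with a poly(A) signal and no stem-loop, had -0.50 ± 0.19 (SE) and was lower in each of the 3 pairs, so Hist2h2be was the only one of these 4 genes without a stem-loop to lie above 0. The 32 genes with at least 50% unique 50-base stretches had a median of -0.64, and the 22 below that had -0.65. The part of read sharing was not tested.

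Promoters were read from RefSeq (GRCm38.p6), from 250 bases before to 50 after each start, for 49 of the 54 analysed genes (50 promoters). Hist2h2be had no entry. Either strand was searched. The CCAAT box was present in 84% of the histone promoters and 37.4% of all 32851 promoters. All 39 promoters of the H1, H2a, H2b and H3 genes held it, and 27.3% of the H4 promoters did. The TATA box (TATAAA) was present in 60% against 13.6%, and the octamer (ATTTGCAT) in 24% against 1.74%. The octamer occurred in 46.2% of H2a and 46.2% of H2b promoters and in none of the H1, H3 and H4 promoters. Some H2a and H2b promoters overlap on opposite strands, so the same match can be counted in both families. A match describes the letters only. Hist1h2bb holds all 3 motifs and had the lowest difference among H2B genes, and Hist2h2ac lies beside Hist2h2be on the opposite strand. The 150 bases before the start of Hist1h2bb and of Hist2h2ac are printed with motif matches in capitals. The octamer of Hist2h2ac lies outside the stretch shown.

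Hist1h2bb, chr13:23746584-23746733 (plus): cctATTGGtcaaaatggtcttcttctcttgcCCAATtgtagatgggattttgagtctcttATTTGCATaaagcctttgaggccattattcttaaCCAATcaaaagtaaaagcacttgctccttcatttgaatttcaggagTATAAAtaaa
Hist2h2ac, chr3:96220881-96221030 (minus): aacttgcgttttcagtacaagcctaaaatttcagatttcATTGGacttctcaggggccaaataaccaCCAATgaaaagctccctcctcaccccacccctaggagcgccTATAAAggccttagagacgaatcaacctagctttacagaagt

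The second question was how IFN-beta itself moved histone transcripts. With control siRNA, the median log2 difference between IFN-beta and untreated cells was -0.13 over the 54 genes (-0.01 over all genes), and 46 of 54 lay below 0. The 2 IFN-beta libraries disagreed: 52 of 54 genes were below the untreated library in the first (median -0.31) and 23 of 54 in the second (median 0.03). With SPT6 siRNA, the median was -0.43 (0.00 over all genes, with 53 of 54 below 0), and both libraries had 53 of 54 genes below the untreated one, with medians of -0.40 and -0.41. Hist2h2be was lower with IFN-beta under both siRNAs, with a fitted log2 difference of -0.75 in the control cells and -0.37 in the knockdown cells. Each of these comparisons rests on 1 untreated library.

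No histone gene was called by edgeR's quasi-likelihood test in either comparison, where 18 of 13185 genes (0.137%) were called under control siRNA and 6 (0.0455%) after knockdown. At an unadjusted p under 0.05 there were 0 histone genes under control siRNA (1086 of 13185 genes in all) and 9 after knockdown (771 of 13185), and DESeq2 and limma-voom called 0 in each. The lowest adjusted p was 0.606 and 0.651. The difference between the responses (SPT6 siRNA minus control siRNA) had a median of -0.28, with 51 of 54 genes below 0. No gene was called for it by edgeR (0 of 13185, 0%), 0 of the 54 had an unadjusted p under 0.05, and DESeq2 and limma-voom also called 0. Without the second control library given IFN-beta, the median difference between the responses was -0.07.

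**Figure D4:**
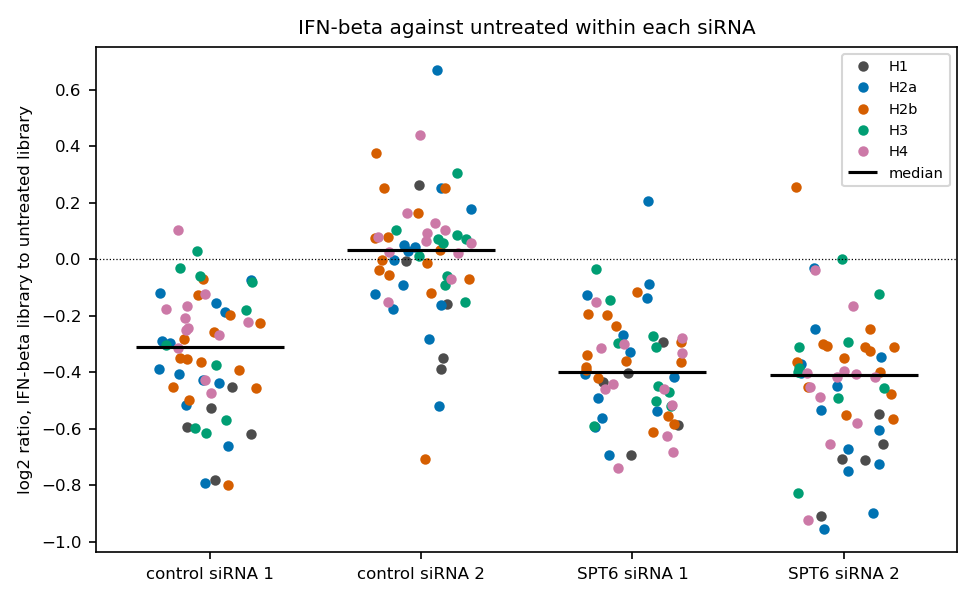
Log2 ratio of each IFN-beta library to the untreated library with the same siRNA for the 54 histone genes (points, coloured by family; black line, median). The second control library has its median at 0.03, and the other 3 libraries lie between -0.41 and -0.31.

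The genes that make or process histone mRNA were read beside the histone genes themselves. Of 30 genes of histone transcription and 3′ processing, 17 had a log2 difference below 0 with SPT6 siRNA in IFN-beta (52.0% of all genes). The median was -0.09, and edgeR called 0 in either direction. Slbp, which encodes the stem-loop binding protein, had 77.9 and 91.2 CPM in the controls against 95.2 and 99.9 CPM in the knockdown libraries (0.21 ± 0.17 SE). Npat, the cyclin E-CDK2 substrate that activates histone transcription, had 78.6 and 79.1 CPM against 67.4 and 65.0 CPM (-0.25 ± 0.16 SE). Lsm10 (0.10 ± 0.22 SE) and Lsm11 (-0.24 ± 0.28 SE), proteins of the U7 particle, and Zfp473 (-0.38 ± 0.49 SE), a zinc finger protein of the same pathway, had differences under 1 SE. Casp8ap2 (FLASH), which joins U7 to the cleavage factors, had 77.7 and 103 CPM against 59.4 and 58.6 CPM (-0.61 ± 0.20 SE, edgeR adjusted p = 0.361). Cdk9 (0.70 ± 0.23 SE) and Ccnt1 (0.40 ± 0.19 SE), the kinase and a cyclin of P-TEFb, were the other genes with the smallest p and lay above 0.

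Variant histone genes outside the replication-dependent clusters had a median of -0.16 over 11 tested genes, 7 of them below 0, and none was called. H2afy2, which encodes a macroH2A, had 23.9 and 25.8 CPM against 14.2 and 12.4 CPM (-0.91 ± 0.21 SE). H2afx, the H2A.X gene, had -0.53 ± 0.19 (SE) and Cenpa, the centromeric H3 variant, -0.49 ± 0.21 (SE). As background, neither is independent of the cell cycle: Cenpa is expressed mainly in G2, and H2afx also gives a stem-loop mRNA. Of 25 histone chaperones, 18 were below 0, the median was -0.32 and none was called. Daxx (-0.80 ± 0.21 SE) and Ubn1 (0.53 ± 0.17 SE), both partners of H3.3 deposition, differed in sign, and Npm3, a nucleoplasmin, had -0.49 ± 0.17 (SE).

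Cell cycle genes were lower in the same libraries. All 50 genes of DNA replication and S phase lay below 0 with SPT6 siRNA in IFN-beta (median -0.56), where 52.0% of all genes did. Of the 50, 43 were lower in each of the 3 pairs, where 28.3% of all genes were. Uhrf1 (-0.94 ± 0.30 SE), Rfc3 (-0.74 ± 0.24) and Clspn (-0.79 ± 0.27) had the smallest p of that list. All 30 mitosis genes also lay below 0 (median -0.62), and 29 of the 30 were lower in each pair, with Kif2c (-0.76 ± 0.22 SE), Tpx2 (-0.73 ± 0.21) and Cenpe (-0.70 ± 0.20) first by p. EdgeR called none of either list. Like the histone genes, both lists had a more negative median in the second IFN-beta pair (-0.71 and -0.88) than in the first (-0.30 and -0.32). In untreated cells the S-phase median was -0.26 and the mitosis median -0.62. The part of cell cycle state in the histone differences was not tested.

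**Figure D5:**
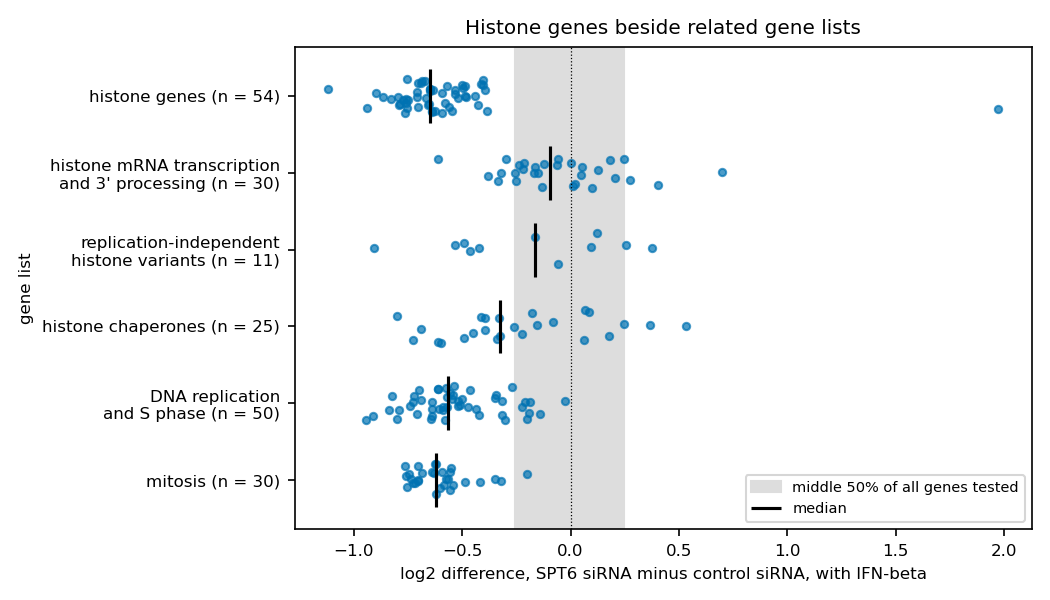
Log2 difference (SPT6 siRNA minus control siRNA, with IFN-beta) of each tested gene, by list (points; black line, median; grey band, middle 50% of all 13185 genes tested, from -0.26 to 0.25). Histone, S-phase and mitosis medians (-0.65, -0.56 and -0.62) lie left of the band, and those of histone mRNA processing factors (-0.09) and variants (-0.16) inside it.

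Supt6, the targeted gene, had 175 CPM in the untreated control and 101 CPM in the untreated knockdown, and 177 and 189 CPM against 108 and 88.4 CPM with IFN-beta (log2 difference -0.90 ± 0.18 SE, edgeR adjusted p = 0.247; called by DESeq2, adjusted p = 0.0306). It was lower in each of the 3 pairs. Counts in genes ranged from 7935961 to 17596498 per library, and the SPT6 siRNA library was the shallower of each pair; histone genes took 0.324% to 0.439% of them with control siRNA and 0.254% to 0.352% with SPT6 siRNA. The part of depth was not tested. Of 12 fibroblast markers, 11 had at least 1 CPM in every library, and their sum ran from 18210 to 21060 CPM in the controls and from 13630 to 16120 CPM in the knockdown libraries. Summed macrophage markers (6 genes) had 7.72 to 11.01 CPM in the control libraries and 15.1 to 18.4 CPM in the knockdown libraries, with Cd68 at 2.20 to 2.71 and 6.48 to 9.92 CPM. Endothelial markers (6) had 1.72 to 3.99 and 3.36 to 5.92 CPM, and epithelial markers (7) had 0.575 to 0.828 and 0.816 to 1.31 CPM. Of the 4 macrophage markers tested, 1 lay below 0 with SPT6 siRNA in IFN-beta. In 3 of the 4, both SPT6 siRNA libraries given IFN-beta lay above both controls (22.7% of all genes tested). In the untreated pair 2 were lower and 2 higher, and 1 was higher in each of the 3 pairs (25.8% of all genes tested). The part of other cell types was not tested. Epcam, Krt5 and Cldn4 had 0 counts in all libraries, and Ptprc, which marks blood cells, was at or below 0.240 CPM.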

How the data were processed

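The labels describe total RNA taken up in TRIzol, Ovation SP Ultralow libraries and paired reads on a HiSeq2000; whether RNA was selected for poly(A) is not given in the sources used here, and this bears on mRNAs that mostly lack a tail. The deposited files hold whole-number read counts per gene, 1 file per library. TopHat2 2.1.0, HTSeq 0.6.1p1 and DESeq2, with the builds mm10 and GRCm38, are listed in the submitters' processing notes; the annotation and strand setting are not given in the sources used here. Reads the authors' counting set aside (5 lines that name no gene) were left out of library sizes; 27.9% to 31.3% of each file's total was placed at more than 1 site, which can remove reads of near-identical histone genes.

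Counts were fitted with edgeR 4.0.16 (R 4.3.3; quasi-likelihood test, TMM, robust, filter at a count minimum of 10, 4 group means over 6 libraries, 2 residual degrees of freedom), with Benjamini-Hochberg adjustment over 13185 genes and calls at 0.05. Each SE was the size of the log2 difference divided by the root of its F statistic. Untreated cells had 1 library a siRNA, so that comparison has values and no test. Alternatives used DESeq2 1.42.0, limma 3.58.1, other scalings and filters, left-out libraries and replicate blocks. The fit was tested on simulated data.

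The histone genes and gene lists were chosen with earlier results of these data known. Genes are named by rule: in each family the 4 most abundant and those with the lowest and highest difference; from each other list the 3 with the smallest p, with Supt6 and 6 processing genes always; Hist2h2ac's neighbour relation, Hist1h4a and the overlapping genes were added after their values were seen. All 68 histone genes matched GENCODE M21 and 67 matched 1 RefSeq gene. No genome sequence was used: stem-loops were searched in GENCODE transcripts, and 50-base stretches compared between transcripts.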

Additional observations from a re-analysis of the deposited data

Results flagged for a closer look

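In 3 histone genes the sign of the log2 ratios differed between the 2 treatments or the 2 siRNAs. None of these differences was called by the test of the interaction. The untreated ratio of Hist1h4h and the second SPT6 siRNA ratio of Hist1h3c show next to no change. Hist1h4h had a log2 ratio of SPT6 siRNA to control of 0.026 in untreated cells and of -0.27 and -0.73 with IFN-beta. Hist1h4m had log2 ratios of IFN-beta to untreated of 0.10 and 0.067 in the control libraries, against -0.46 and -0.42 in those with SPT6 siRNA. Hist1h3c had 0.030 and 0.073 in the control libraries, against -0.45 and -0.00011 in those with SPT6 siRNA. Each rests on 1 untreated library per siRNA. No group had enough libraries for a test of single libraries that stand apart.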

How the results depend on the processing

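The count of histone genes called for SPT6 siRNA with IFN-beta changed with the setting. It was 0 by edgeR's quasi-likelihood test, 1 with DESeq2 (62 of 13185 genes in all, 0.470%) and 1 with no count filter (66 of 17745, 0.372%; Hist2h2be in both, higher), and 0 under the other scalings, filters and left-out libraries. The replicate numbers are shared by 2 pairs of IFN-beta libraries, and the labels do not say what a number stands for. The deviations of same-numbered libraries correlated across 13185 genes (r = 0.635, a description). With the replicate block, 51 histone genes were called, 50 lower and 1 higher, among 2638 of 13185 genes in all (20.01%). That block adds a term to the 4 group means, so fewer residual degrees of freedom remain than the 2 of the main fit. With the replicate block over 3 pairs, 49 were called, 48 lower and 1 higher, among 3245 (24.6%). For IFN-beta with SPT6 siRNA, the replicate block called 8 histone genes, all lower, among 545 genes in all (4.13%). It called 0 histone genes for IFN-beta with control siRNA (957 genes in all, 7.26%) and 0 for the difference between responses (4 genes in all).

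Fitted medians with SPT6 siRNA in IFN-beta stayed below 0 in all 14 alternatives, with 53 of 54 genes below 0 in each, and leaving out a library gave -0.80 to -0.43. Library size alone as scaling gave -0.56, with the median of all genes moved to 0.07. The IFN-beta median with SPT6 siRNA (-0.43) was -0.48 with library size alone, -0.41 with no count filter, -0.475 with the replicate block and -0.43 to -0.41 with a library left out. With control siRNA (-0.13), leaving out a library gave -0.31 to 0.02, the last without the first control library, and the difference between responses then ran from -0.41 to -0.07. With library size alone, 50 rather than 52 genes had both SPT6 siRNA libraries below both controls, and 48 rather than 52 were lower in each of 3 pairs. With a library left out, Lsm10 ran from -0.071 to 0.30 and Lsm11 from -0.50 to 0.080, each on the other side of 0 without the second control library. Left-out fits leave an arm with 1 library, assumed to vary like the others. The lowest members' counts, from 35 in a library, and 2 libraries a group limit precision.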
